A study of Mus musculus with 2 samples.

Results

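Dense clusters of distal open regions in the left cerebral cortex of adult mice were described from DNase-seq, an assay in which the enzyme DNase I cuts exposed DNA in nuclei and the ends of the cuts are sequenced. A distal region was an interval in which peaks of both samples overlapped. It lay over 2 kb from every transcription start site (TSS) of GENCODE release M21. Neighbouring distal regions were chained where their edges were 12500 bp or less apart, and a cluster was a chain of 5 or more. There were 95 clusters among 18617 chains, with 550 of the 23895 distal regions (2.3%), and 44745 shared regions in all. The members were chosen by the measured positions of peaks, so their number, density and span are descriptions with no test. The material was left cerebral cortex of 2-month-old male B6CASTF1/J mice, the first-generation offspring of a cross between C57BL/6J and CAST/EiJ, with 2 samples in 1 group numbered as biological replicates 1 and 2 and no treatment, second tissue or second genotype. Both samples shared every label that describes a condition, and their labels list a common strain-level donor record. Cortex is a mixture of neurons, glia and vessel cells, and a low peak from a few cells that open a site widely cannot be told apart from one that many cells open slightly.

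Enhancers are stretches of DNA away from promoters that bind transcription factors and raise transcription of a gene on the same chromosome. Genes that define a cell type are often surrounded by several enhancers within a short stretch of chromosome, and the chaining distance used here is the one customary for stitching such groups together. Open chromatin away from coding promoters also occurs at insulators, at starts of unannotated transcripts and at transfer RNA (tRNA) genes, which RNA polymerase III transcribes from promoter elements inside the gene, called the A box and the B box.

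Each peak has a height, the authors' own value, with no scaling stated in the sources used here, and the sequencing depth is unknown. Replicate 1 had 63928 peaks and replicate 2 had 76440 after overlapping peaks of a list were joined. Replicate 1 stood apart in its own peaks. Chaining its 33897 distal peaks alone gave 34 chains of 20 or more with 928 peaks, a median height of 0.147 against 0.747 over all its distal peaks, and a replicate 2 peak at 7.65% of them. Of these, 3 touched a cluster described below and 31 did not. Replicate 2 alone had 2 such chains with 44 peaks, a median height of 1.15 and a replicate 1 peak at 79.5% of them. The clusters described below rest on regions found in both replicates. Chained alone, replicate 1 gave 562 clusters and replicate 2 gave 496, and these overlapped 94 and 95 of the 95 shared ones in turn. That overlap was largely fixed by the rule, since every shared region holds a peak of each replicate, so it is no check on the clusters.

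A region from each of 3 of the largest clusters is printed to show what was measured, each the tallest of its cluster by the geometric mean of both heights. They are examples and not typical of cluster regions, whose motif shares follow further on. All are the plus strand of mm10, written 5′ to 3′, with motif matches on either strand in capitals. The first, at chr12:86801211-86801510, comes from the cluster nearest to Irf2bpl and is shown for its AP-1 motif (TGANTCA, bases 102 to 108), the site of Fos and Jun proteins, and its GC box (GGGCGG, bases 137 to 142), the site of Sp factors. The second, at chr6:47650761-47651000, comes from the cluster nearest to Ezh2. It holds a B box (GTTCGANNC, bases 24 to 32) where RefSeq lists no tRNA gene. A B box was found in 2 of the 495 cluster regions away from tRNA genes. The match was set beside tRNA genes alone, and whether it belongs to another gene of RNA polymerase III was not tested. The third, at chr13:21161261-21161500, covers the tRNA-Phe gene n-TFgaa4 with its B box at bases 197 to 205.
Irf2bpl cluster: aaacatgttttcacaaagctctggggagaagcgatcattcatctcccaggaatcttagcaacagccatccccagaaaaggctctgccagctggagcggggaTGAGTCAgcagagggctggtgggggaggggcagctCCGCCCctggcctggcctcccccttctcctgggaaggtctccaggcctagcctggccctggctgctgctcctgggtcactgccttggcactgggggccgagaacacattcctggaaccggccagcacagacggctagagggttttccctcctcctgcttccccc
Ezh2 cluster: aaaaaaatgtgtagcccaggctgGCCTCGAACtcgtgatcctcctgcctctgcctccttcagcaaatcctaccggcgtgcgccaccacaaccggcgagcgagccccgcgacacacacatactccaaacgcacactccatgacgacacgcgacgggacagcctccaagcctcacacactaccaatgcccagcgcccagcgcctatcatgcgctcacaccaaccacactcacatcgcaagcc
Trim27 cluster, n-TFgaa4: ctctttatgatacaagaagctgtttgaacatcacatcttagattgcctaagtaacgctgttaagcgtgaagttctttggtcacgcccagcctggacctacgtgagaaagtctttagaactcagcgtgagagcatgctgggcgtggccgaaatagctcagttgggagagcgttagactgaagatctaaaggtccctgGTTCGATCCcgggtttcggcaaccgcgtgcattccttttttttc

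Clusters were rare ends of a steep distribution. Of the chains, 14747 were single regions, 2912 were pairs, 678 held 3 regions and 185 held 4. Above that, 62 clusters held 5 regions, 19 held 6, 5 held 7 and 4 held 8. The remaining 5 clusters held 9, 9, 11, 12 and 18 regions. Just outside the threshold, chains of 4 had a median span of 13.5 kb and median summed heights of 5.12 in replicate 1 and 4.37 in replicate 2. Just inside it, chains of 5 had a median span of 17.5 kb and summed heights of 7.33 and 5.83. The cluster regions held 3.55% of the summed height of all distal regions in replicate 1 and 3.23% in replicate 2. The count of clusters moves with the chaining distance, from 26 at 5 kb to 209 at 20 kb, and 25 of those 95 clusters were found at the shorter distance.

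**Figure D1:**
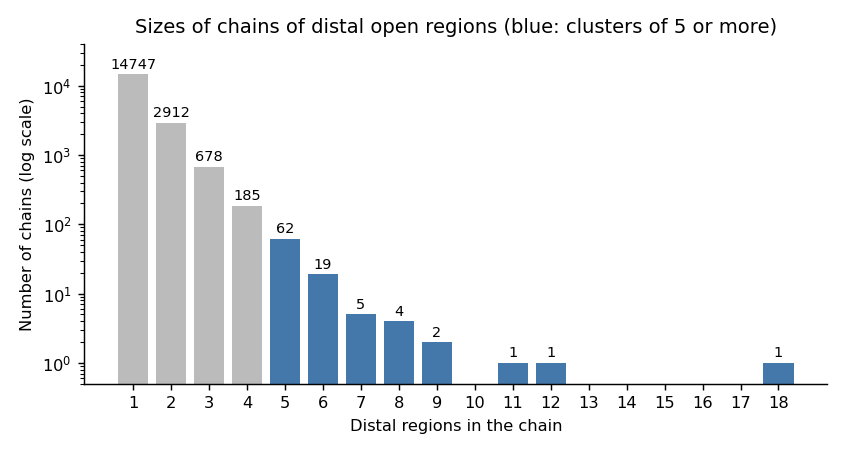
Number of chains (y axis, log scale) by the number of distal regions in the chain (x axis), with the count above each bar. Chains of 5 or more, the clusters, are blue and shorter chains grey, and the counts fall from 14747 single regions to 185 chains of 4 and 62 of 5.

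The clusters spanned 2.42 to 42.4 kb with a median of 20.6 kb, and 1955 kb together. The median cluster had 2.77 regions per 10 kb, and the range was 1.36 to 20.7. Summed heights ran from 3.34 to 76.0 in replicate 1, with a median of 8.01, and from 2.64 to 44.3 in replicate 2, with a median of 6.57. The tallest region gave a median of 29.4% of a cluster's summed height, so most clusters were not 1 tall peak with small neighbours. The highest shares were 61.4% in the cluster nearest to Cstad, 53.0% in the one nearest to Ezh2 and 50.04% in the one named for 1700029H14Rik. Summed heights kept their order between the replicates (Spearman's rho 0.828 over the 95 clusters). This is a description, since the clusters were chosen on peaks of both libraries and share those libraries. The sum was larger in replicate 1 for 80 clusters and in replicate 2 for 15. The median log2 ratio of these sums, replicate 2 over replicate 1, was -0.35 over clusters. Taken region by region, the median was -0.36 in cluster regions and -0.19 in all distal regions outside clusters. Shorter chains had negative medians too, with -0.17 in chains of 1, -0.23 in pairs, -0.22 in chains of 3 and -0.29 in chains of 4. With 1 library on each side the ratio has no test.

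**Figure D2:**
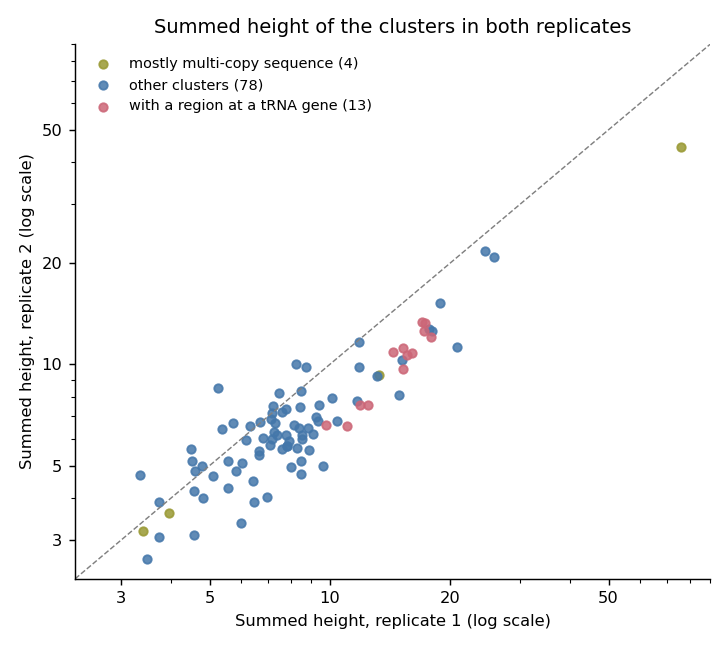
Summed peak height of each of the 95 clusters in replicate 1 (x axis) and replicate 2 (y axis), both on log scales and in the authors' units, with the line of equal height dashed. Each point is a cluster, coloured by kind, and most of the 95 points, 80 of them, lie under the line.

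Genes at the clusters were described next. A protein-coding gene body was overlapped by 41 clusters (43.2%) and 54 clusters overlapped none. All regions were inside introns in 18 clusters and all were intergenic in 48. Of all cluster regions, 63.3% were intergenic and 32.0% intronic, against 48.7% and 46.6% of the distal regions outside clusters. The clusters thus stood more often between genes than other distal regions did, and the same held for the 459 single-copy cluster regions away from tRNA genes, of which 59.5% were intergenic. This was not particular to clusters, since the intergenic share was also higher in larger chains under the threshold. It was 47.5% in single regions, 48.6% in pairs, 53.6% in chains of 3 and 59.9% in chains of 4. These shares have no test, since regions of a cluster are neighbours from the same libraries.

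The cluster with the most regions in single-copy sequence lay between coding genes at chr12:86795941-86836920. Its nearest coding TSS was 47.9 kb away at Irf2bpl (ENSMUSG00000034168.7), which encodes a nuclear regulator related to a partner of an interferon regulatory factor. The cluster held 12 regions over 41.0 kb, all intergenic, with a summed height of 25.7 in replicate 1 and 20.8 in replicate 2. The span also held the noncoding gene Gm25888 and 1 shared region near a TSS, which the rule left out. Heights ran from 0.872 to 4.84 in replicate 1 and from 0.844 to 3.21 in replicate 2. The 3 tallest in replicate 1 had heights of 4.84, 3.88 and 3.22, and in replicate 2 the same regions had 2.95, 2.69 and 1.64. The tallest of all in replicate 2, with a height of 3.21, reached 1.92 in replicate 1. The order within the cluster was thus not the same in both replicates. The printed region with the AP-1 motif held 7 footprints in replicate 1 and 4 in replicate 2, a footprint being a short protected stretch that the authors called inside open chromatin. Chained from replicate 2 alone, this cluster reached 23 peaks over 68.9 kb.

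Thra and Nr1d1, neighbours at chr11:98747421-98789160, shared a cluster of 9 regions over 41.7 kb. Thra encodes thyroid hormone receptor alpha and Nr1d1 encodes a heme-binding nuclear receptor that represses genes of the circadian clock. The summed height was 24.6 in replicate 1 and 21.7 in replicate 2. In replicate 1 the regions reached 3.61, 2.47, 0.997, 0.859, 1.90, 5.95, 2.14, 4.26 and 2.37 along the chromosome. In replicate 2 the same regions reached 3.62, 1.34, 1.28, 0.716, 2.36, 4.23, 2.17, 3.71 and 2.32. The 2 lowest were the same in both replicates, and both lay in introns. The 5 intergenic regions at one end took most of the height. Their tallest, at chr11:98783381-98783640, lay 8048 bp from the nearest TSS. The span also held 3 shared regions near a TSS, which the rule left out.

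The cluster nearest to Ezh2 (ENSMUSG00000029687.16), the methyltransferase of Polycomb complexes, lay 51.4 kb from its TSS at chr6:47646761-47653160. Its 8 regions in 6.4 kb were uneven. The printed region with the B box reached 10.7 in replicate 1 and 6.17 in replicate 2, its neighbour 6.16 and 2.16, and the other 6 stayed at or below 1.08 and 1.16. RefSeq places a start within 2 kb of 7 of the 8 regions, the long noncoding RNA Gm40371 among them each time, so these regions were distal by the GENCODE list alone. In the tallest, 33.8% of the 25-base words occurred more than once in the genome. In the last region of the cluster, within 2 kb of the start of the small RNA gene Rn4.5s, the share was 100%.

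Kdm6b, which encodes a histone demethylase acting on the mark that Ezh2 writes, had a cluster of 7 regions over 10.6 kb at chr11:69408581-69419160. The summed height was 18.9 in replicate 1 and 15.2 in replicate 2. Heights ran from 1.45 to 4.23 in replicate 1 and from 1.14 to 2.998 in replicate 2, so every region was above the median of other distal regions, which was 0.885 and 0.810. All 7 lay within 2 kb of a RefSeq start of Kdm6b, 4 of them inside its GENCODE gene body. Across all clusters, 52 regions in 30 clusters lay within 2 kb of a RefSeq start, 9.45% of cluster regions against 6.33% of the others. This was not particular to clusters, since the share was 5.24% in single regions, 7.69% in pairs, 9.29% in chains of 3 and 9.19% in chains of 4.

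Osbpl3, an oxysterol-binding protein gene, had the largest cluster held wholly by 1 gene, with 7 regions over 28.7 kb and summed heights of 8.48 in replicate 1 and 8.36 in replicate 2. In 21 clusters all regions lay in 1 coding gene. The cluster 34.5 kb from Foxo6, a forkhead gene expressed in the brain, had 7 intergenic regions over 36.8 kb and summed heights of 8.89 and 5.55. The one nearest to Hrh2, a histamine receptor gene, spanned 38.6 kb with 6 regions and summed heights of 7.61 and 7.23. Both were long, with sums around the medians over clusters of 8.01 in replicate 1 and 6.57 in replicate 2. These sums were below those of the clusters at Irf2bpl and Thra. The cluster 3.71 kb from Tex44 was short and high: 6 regions in 12.7 kb summed to 18.1 in replicate 1 and 12.6 in replicate 2, and its tallest region had heights of 7.27 and 5.24. RefSeq starts lay within 2 kb of 3 of its 6 regions.

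**Figure D3:**
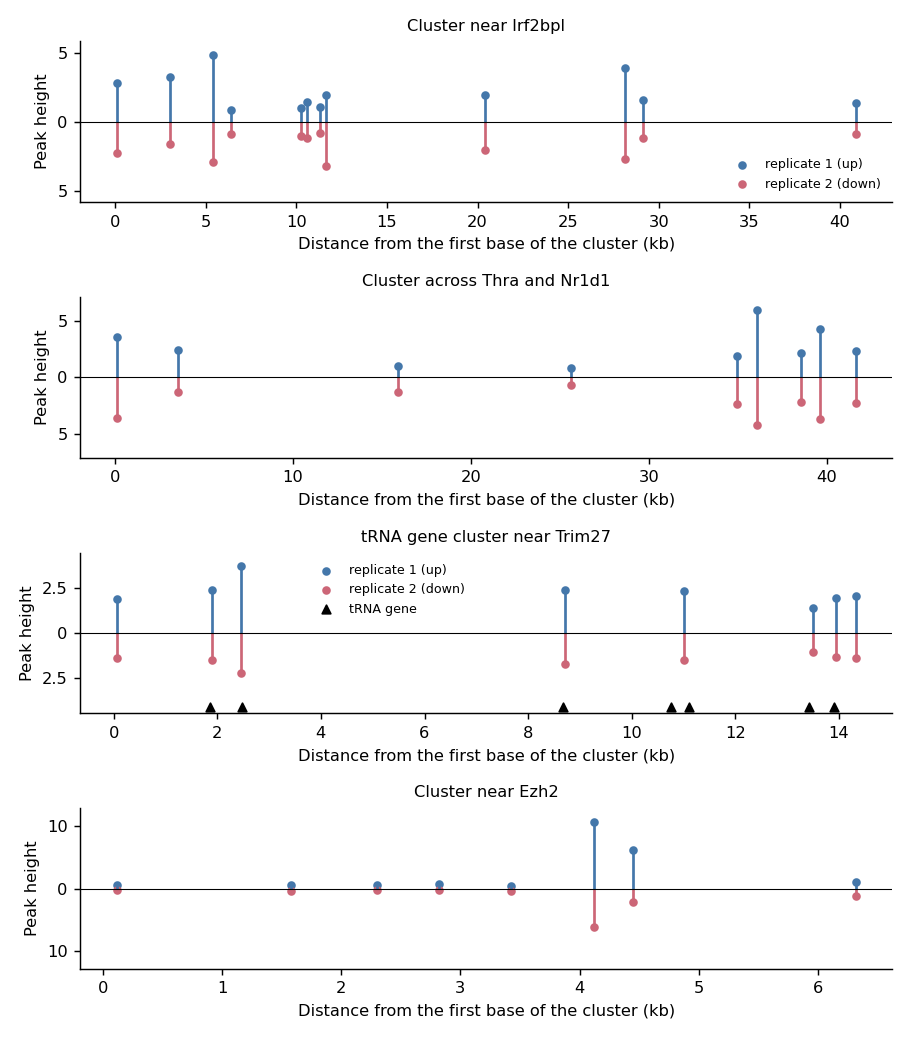
Peak height of each region (y axis, authors' units, replicate 1 upward in blue and replicate 2 downward in red) against distance from the first base of the cluster (x axis, kb) for 4 clusters, with tRNA genes as triangles. Heights are spread over many regions near Irf2bpl and Trim27, whereas 1 region near Ezh2 reached 10.7 and 6.17.

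A group of clusters coincided with tRNA genes, which the GENCODE gene list used for the rule does not hold. RefSeq lists 403 tRNA genes on the 21 chromosomes, and 58 of them (14.4%) were in cluster regions. In all, 210 (52.1%) lay in a shared region of any kind. Of the 550 cluster regions, 55 (10%) overlapped a tRNA gene, against 75 of the 23345 other distal regions (0.321%). These 55 regions sat in 13 clusters, and in 10 of them they were the majority. By the rule these are distal, but they lie at the start sites of RNA polymerase III genes, so the label distal does not hold for them. The tRNA genes carried 19 different amino acids by their names, led by Leu with 8 genes, Asp with 7, and Ala and Gly with 5 each.

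The tRNA clusters were shorter and higher than the rest, as a description with no test. Their median span was 12.6 kb and their median summed height 15.2 in replicate 1 and 10.8 in replicate 2, whereas the 78 clusters that were neither of this kind nor multi-copy had a median span of 21.7 kb and summed heights of 7.60 and 6.16. Their single regions at tRNA genes had a median height of 2.59 in replicate 1 and 1.81 in replicate 2. Outside clusters, the 75 distal regions at tRNA genes had medians of 2.34 and 1.77, so heights at tRNA genes were close inside and outside clusters. Of the 55, 0 were mostly multi-copy sequence. The ratio between the replicates also differed. Its median log2 was -0.53 over tRNA cluster regions and -0.30 over the other cluster regions, and the cause was not tested. A B box was found in 34 of the 55 (61.8%), and an AP-1 motif in 0. The ratio of observed to expected CpG had a median of 0.807 in them and 0.315 in other cluster regions.

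Trim27, a ubiquitin ligase gene on chromosome 13, lay 6.11 kb from 8 regions in 14.4 kb at chr13:21158928-21173340. The 6 regions at tRNA genes covered 7 tRNA genes, for Glu, Phe, Met, Leu and Gln. Heights ran from 1.35 to 3.69 in replicate 1 and from 1.05 to 2.20 in replicate 2, and n-TFgaa4 was the highest in both. Near Abt1, 7 of 8 regions were at tRNA genes, with summed heights of 16.1 in replicate 1 and 10.8 in replicate 2. On chromosome 19, 24.2 kb from the olfactory receptor gene Olfr1423, 6 of 7 regions in 10.3 kb were at tRNA genes, with summed heights of 17.3 and 13.3.

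The densest cluster of all was of this kind. It held 5 regions in 2.42 kb at chr14:51062981-51065400, 5.32 kb from Rnase12, and 3 of them covered n-TLaag8, n-TPagg4 and n-TTtgt3. Heights in replicate 1 were 0.730, 3.52, 2.97, 4.76 and 3.27, and in replicate 2 they were 0.392, 2.23, 1.94, 2.40 and 2.74. All but 1 region stood above 1.9 in both replicates. In the cluster 23.5 kb from Hfe2, an iron regulation gene, all 5 regions in 3.94 kb were at tRNA genes, and the lowest reached 2.06 in replicate 1 and 1.72 in replicate 2. The widest cluster, 42.4 kb at Wnt10a, a Wnt ligand gene, had 1 tRNA region, for n-TGgcc3, among its 8, and summed heights of 15.2 and 11.2.

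Without the regions at tRNA genes there were 83 clusters, and without those and the regions within 2 kb of a RefSeq start there were 65, all among the 95. Both alternatives were chosen after seeing the data.

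Another 4 clusters were mostly multi-copy sequence, in which a read may match more than 1 place, so their heights are uncertain. The cluster with the most regions of all was 1 of them. It held 18 regions over 40.5 kb at the end of the X chromosome, chrX:169981921-170022420, at Mid1, a ubiquitin ligase gene at the boundary of the pseudoautosomal region. The summed height was 76.0 in replicate 1 and 44.3 in replicate 2, and 91.7% of its 25-base words occurred more than once in the genome. A cluster of 11 regions lay near the end of the Y chromosome, 10001 bp from Gm21860, with 63.7% multi-copy words and summed heights of 13.3 and 9.33. The others lay near Pramef17, a member of the PRAME family (92.7%, summed heights 3.95 and 3.62), and Gm21119 (85.6%, 3.41 and 3.19). Without multi-copy regions 91 clusters were left.

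Cluster regions and other distal regions were compared in what the rule did not use. Median heights were higher the larger the chain: in replicate 1 from 0.825 in single regions to 0.958 in pairs, 1.04 in chains of 3, 1.15 in chains of 4 and 1.32 in clusters, and in replicate 2 from 0.777 to 0.851, 0.912, 0.999 and 1.11. Single-copy cluster regions away from tRNA genes still had medians of 1.25 and 1.07. Cluster regions had a mean of 3.52 footprints in replicate 1 and 3.10 in replicate 2, against 2.91 and 2.65 in the others. The mean was also higher in larger chains under the threshold, from 2.85 and 2.60 in single regions to 3.23 and 2.91 in chains of 4. In single-copy cluster regions away from tRNA genes it was 3.32 and 2.95. The median width was 240 bp in cluster regions and 220 bp in the others. These are descriptions of regions that share libraries and neighbourhoods, and no test was made.

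Motifs were searched on both strands in the 200 bp around the middle of each region. A GC box was found in 17.5% of cluster regions and 9.83% of other distal regions of the same searched length. It was not particular to clusters, with 8.54% in single regions, 11.2% in pairs, 12.1% in chains of 3 and 18.1% in chains of 4. The median share of G and C bases was 53.5% in cluster regions and 50.6% in other distal regions, and its part in the motif shares was not tested. An E-box of the NEUROD type (CAGATG), the site of neuronal basic helix-loop-helix factors, was found in 18.9% against 23.5%, and the AP-1 motif in 10.2% against 15.3%. The CTCF motif of the insulator protein was found in 9.27% against 12.3%, and the MEF2 motif in 2.91% against 3.19%. Rarer motifs rest on few cluster regions. The CRE motif (TGACGTCA) of CREB factors was found in 6 cluster regions (1.09% against 0.578%), the ETS motif (CCGGAAGT) in 3 (0.545% against 0.317%), the EGR motif (GCGTGGGC) in 4 (0.727% against 1.19%) and the NFI motif in 0 (against 0.090%). With tRNA and multi-copy regions left out of both sets, the GC box was found in 18.5% against 9.79%, the E-box in 20% against 23.6% and AP-1 in 11.5% against 15.4%. The gap for CTCF was then smaller, with 10.9% against 12.4%, and that for MEF2 changed direction, with 3.27% against 3.20%. A match is a string of letters and not a bound site.

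**Figure D4:**
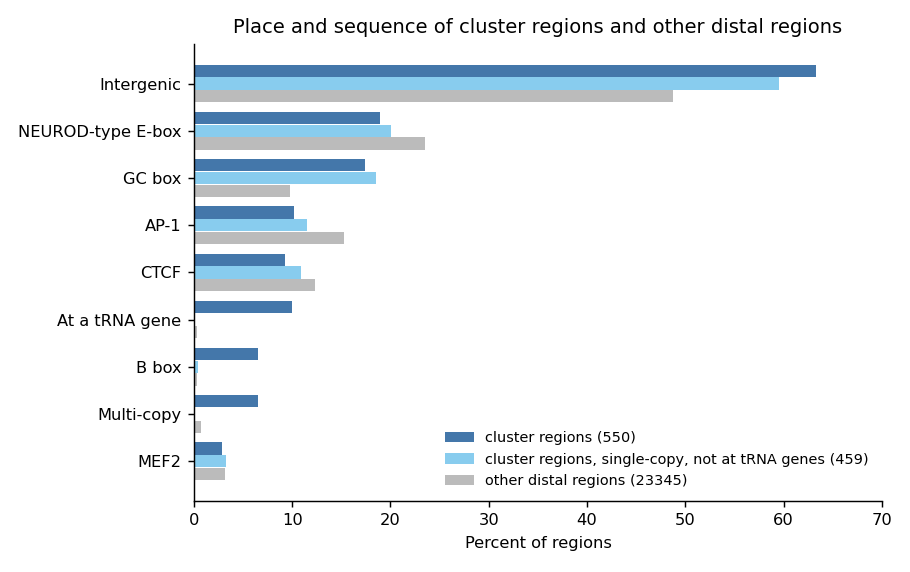
Percent of regions (x axis) that were intergenic, at a tRNA gene, multi-copy or held a motif, for all cluster regions, for single-copy cluster regions away from tRNA genes, and for other distal regions. Intergenic regions and GC boxes were more frequent in clusters (63.3% and 17.5%) than outside (48.7% and 9.83%), and AP-1 was less frequent (10.2% against 15.3%). Chains of 4, which are among the other distal regions, had 59.9% intergenic regions and GC boxes in 18.1%.

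Open chromatin between the called peaks was read from the authors' track of false discovery rates (FDR), which the rule did not read. The rule still bears on it, since a cluster ends where no further distal region lies within the chaining distance, so that spans were chosen to be rich in peaks and flanks to be poor in them. The values are therefore a description, and the direction is largely set by that choice. The measure was the share of bases of a span, outside its peaks, with an FDR under 0.05. Its median was 5.95% in replicate 1 and 5.25% in replicate 2, and in flanks of equal length it was 1.47% and 1.59%. The share was higher than in the flanks in 94 of 95 clusters in replicate 1 and in 92 in replicate 2. The exception in replicate 1 was the cluster near Foxo6, with 3.08% against 3.60%. Those in replicate 2 were the clusters at Wnt10a, with 3.84% against 5.52%, Idh2, with 3.10% against 3.52%, and Tbc1d16, with 3.45% against 3.48%. The highest shares were those of the tRNA cluster near Rnase12, with 75.2% and 92.6%. The track comes from the same reads as the peaks, so it is a second reading of the same libraries and not a replicate.

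**Figure D5:**
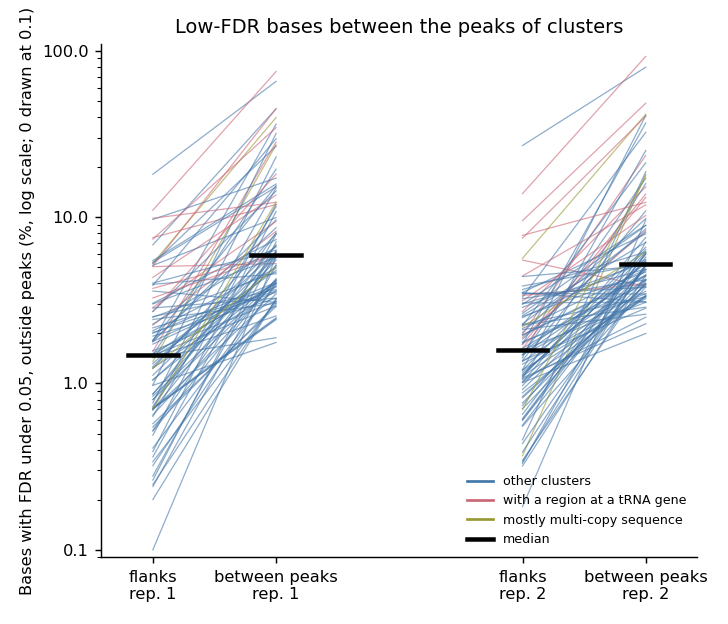
Percent of bases outside called peaks with an FDR under 0.05 (y axis, log scale, with 0 drawn at 0.1) in the flanks and between the peaks of each cluster, in replicates 1 and 2. Each line is a cluster and black bars are medians, which lie at 1.47% in flanks and 5.95% between peaks in replicate 1 and at 1.59% and 5.25% in replicate 2.

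Lists of genes with roles in cortex were set beside the clusters. Of 21938 protein-coding genes, 102 (0.465%) were overlapped by a cluster or had the TSS nearest to one. Of 12 lists, 3 had such a gene, each with 1. Of the 30 genes of excitatory neurons and cortical layers it was Mef2c, of the 26 postsynaptic scaffold genes Dlgap4, and of the 25 astrocyte genes Id3. The lists of inhibitory neurons (28 genes), glutamate and GABA receptors (36), ion channels (45), adhesion and guidance (44), immediate early genes (24), oligodendrocytes (28), microglia and vessels (26) and Wnt, Notch and Tgfb signalling (32) had 0. The lists do not hold every gene of their kind: Wnt10a, which a cluster overlapped, and the potassium channel genes Kcna5 and Kcnj2, nearest coding genes of a cluster each, are in none of them. The list of transcription factors of liver, muscle and blood, tissues outside the brain, had 0 of 26. These counts are too small to set a list apart from the background.

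Mef2c (ENSMUSG00000005583.16), a transcription factor of cortical neurons, was the nearest coding gene, 62.2 kb away, to 5 regions over 30.2 kb at chr13:83715061-83745280. The cluster itself overlapped Mir9-2, the gene of a microRNA of neural progenitors and neurons, and the noncoding gene C130071C03Rik. Heights in replicate 1 were 5.32, 2.31, 0.285, 0.466 and 4.77, and in replicate 2 they were 3.44, 1.72, 0.527, 0.635 and 2.94. The 2 outermost regions were the highest in both replicates and 2 of the inner ones the lowest. The span also held 9 shared regions near a TSS, which the rule left out. Dlgap4, which encodes a postsynaptic scaffold protein, held all 6 regions of its cluster in introns, with summed heights of 7.14 in replicate 1 and 6.88 in replicate 2. Id3, an inhibitor of basic helix-loop-helix factors, lay inside a cluster of 5 intergenic regions over 28.7 kb with summed heights of 8.48 and 4.73.

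The highest log2 ratio, replicate 2 over replicate 1, was 0.70 for 5 regions 48.6 kb from Mrtfb, a coactivator of serum response factor, with summed heights of 5.26 in replicate 1 and 8.52 in replicate 2. Next were the clusters near Spred1 (0.49), an inhibitor of Ras signalling, in Susd4 (0.32), in Zbtb16 (0.29), a zinc finger repressor gene, and near Ppp2r2a (0.26), a phosphatase subunit gene. The lowest was -0.95 at Rxra, the retinoid X receptor alpha gene, with summed heights of 9.64 and 5.00. It was followed by the clusters nearest to Ezh2 (-0.88), Krt8 (-0.87), Id3 (-0.84) and Tbc1d16 (-0.83). Each is a ratio of 1 sample to 1 sample and has no replicate check.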

How the data were processed

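DNase-seq peaks, footprints and FDR stretches of 2 samples on mm10 were used. The peak heights are a signal that the authors deposited, and the FDR values are p-value-like rates under 0.05 deposited by the authors per stretch of bases. The deposited footprint lists have a constant in their value column and were used as positions. The sources used here state no aligner, peak caller, footprint caller or scaling of heights, and no deposited file used holds read counts, so the depth of each sample is unknown and no counting interval is given. Arithmetic on heights thus compares the authors' values as they stand.

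Of the 2 peak lists of each sample the shorter was used. Overlapping peaks of a list were joined with the highest height kept, peaks of both samples overlapping by 1 bp were merged, and regions over 2000 bp from every GENCODE M21 TSS on 21 chromosomes were chained at 12.5 kb. A region takes the highest height of each sample within it. Sequence, RefSeq starts and tRNA genes came from RefSeq on GRCm38.p6, the build of mm10. A region was multi-copy where at least 50% of its 25-base words occurred more than once in the genome, on either strand. The animals are F1 hybrids with 1 parent unlike the reference, and what this does to heights was not tested.

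Clusters were named for the coding gene holding more of their regions than any other, else for the nearest coding TSS. Such a gene could hold a minority of the regions, as with 2 of 5 for Rxra and 2 of 8 for Wnt10a. Named were the 12 with most regions, 8 with the largest summed height, 5 widest, 5 densest, 5 with most regions and no coding gene, 5 each with the highest and lowest ratio between samples, and those at listed genes. Some clusters that the rule names are not reported here. Cstad, 1700029H14Rik, Osbpl3, Foxo6, Idh2, Kcna5 and Kcnj2 were added after their values were seen. The members, lists and rules were chosen with earlier results of these data known. With 1 group of 2 samples no test between groups was possible. Alternatives were other chaining distances, cluster sizes, TSS distances, overlaps, peak lists, heights and replicates. Chaining and word counting were tested on simulated data. Python 3.11.15, NumPy 2.4.6, pandas 2.3.3, Numba 0.67.0, SciPy 1.17.1 and Matplotlib 3.10.9 were used.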

Additional observations from a re-analysis of the deposited data

How the results depend on the processing

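The 95 clusters became 26 at a chaining distance of 5 kb and 209 at 20 kb, 280 with at least 4 regions and 33 with at least 6, 530 with the longer peak lists and 33 with peaks at or above the median height. They were 496 to 562 without replicate 1 or without replicate 2. The share of distal regions in clusters, 2.3%, was 5.79% to 14.5% when a replicate was left out. The share of clusters overlapping a coding gene, 43.2%, was 30.8% at 5 kb and 56.9% at 20 kb, 52.9% and 36.4% with TSS distances of 1 kb and 5 kb, 58.3% with the longer lists, 51.5% with the higher peaks, 55.2% to 59.6% with 1 replicate and 47.0% without tRNA regions, an alternative chosen after seeing the data. The median log2 ratio between replicates stayed negative under each alternative run, from -0.44 to -0.20. No paired analysis was possible because there is 1 group. The unknown depth limits the low peaks.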

Other observations

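Of the 34 chains of 20 or more distal peaks in replicate 1 alone, 31 touched no cluster of shared regions. They held 862 peaks, of which 31 overlapped a replicate 2 peak, spanned 10.1 to 51.7 kb with a median of 25.7 kb, and had median heights of 0.095 to 0.203. The largest held 49 peaks at chr2:85093244-85133269 with a median height of 0.112, and 2 of the 49 overlapped a replicate 2 peak. The next held 42 peaks at chr2:167265421-167309064 with a median height of 0.203, and again 2 overlapped. The other 3 chains were those at Mid1, at Thra and near Gm21860, with median heights of 1.82, 0.859 and 0.695, where 19 of 24, 9 of 21 and 12 of 21 peaks overlapped. In replicate 2 alone the chains of 20 or more were those at Irf2bpl, with 23 peaks, and at Mid1, with 21 peaks.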
